A study of Mus musculus with 18 samples.

Results

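Efemp1, Htra1, Lrrc17 and Dkk3 code for secreted proteins and were abundant in CT26 tumours and low in CT26-NY-ESO-1 tumours. They are 4 of the 55291 genes in the deposited table, and were picked by name because of that difference. All 4 were among the 16816 genes that passed the filter on low values. The levels by tumour type therefore chose them and are given as a description without a test, while the response to treatment was not used in the choice and was tested. The low level was not a complete absence, since each of the 4 genes had a value above 0 in each of the 18 libraries.

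Transcripts were measured by bulk mRNA sequencing of tumours grown under the skin of mice and collected on day 14. CT26-NY-ESO-1 tumours, labelled CT26NYESO1, came from a CT26 line whose name refers to NY-ESO-1, a human tumour antigen. LL/2 tumours, labelled LL2, came from the Lewis lung carcinoma line, which has the C57BL/6 background, and CT26 tumours came from CT26 itself, a BALB/c colon carcinoma line. Each tumour type had 3 libraries given OK-432, a lyophilised Streptococcus pyogenes preparation, into the tumour for 24 hours (OK432) and 3 libraries without it (Ctrl). The protocols name BALB/cJ and C57BL/6J hosts without tying a host to a line, and do not give their age, what the controls received, whether CT26-NY-ESO-1 was 1 clone, or whether each library came from its own mouse. The p-values therefore reflect how far these libraries spread, part of which may be technical. The NY-ESO-1 transcript itself was not analysed here.

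The 4 proteins act outside the cell. Efemp1 codes for fibulin-3, an extracellular matrix glycoprotein with EGF-like repeats that binds the metalloproteinase inhibitor Timp3 and, as shown for the human protein, can bind the EGF receptor. Htra1 is a secreted serine protease that cleaves matrix proteins and dampens signalling by TGF-beta ligands. Lrrc17 is a small secreted leucine-rich repeat protein, described in mouse bone as an inhibitor of osteoclast formation under RANKL. Dkk3 is the divergent member of the Dickkopf family, whose other members block Wnt signalling by binding the Lrp5 and Lrp6 coreceptors, and its own effect on Wnt signalling depends on the cell.

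Values are TPM, a length-corrected share of the transcripts, which sum to the same total in each library, so levels of different genes can be compared within a library. Between 24036 and 25858 genes were above 0 per library, and the read depth is unknown. Among all tested genes the median difference between CT26NYESO1 and CT26 controls was -0.18 on the log2(TPM + 1) scale, and rescaling the libraries by median-of-ratios size factors moved it by 0.18. Single libraries moved the count of treatment calls, as given with the treatment results.

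The 4 genes lie on 3 chromosomes, and none is a neighbour of another. In GENCODE M21 on the mm10 build, Efemp1 (ENSMUSG00000020467.15) occupies chr11:28853204-28926743 on the plus strand with up to 11 exons per transcript. Htra1 (ENSMUSG00000006205.13) occupies chr7:130936111-130985660 on the plus strand with up to 9 exons. Dkk3 (ENSMUSG00000030772.6) occupies chr7:112116017-112159057 on the minus strand with 8 exons, 18.8 Mb before Htra1. Lrrc17 (ENSMUSG00000039883.5) occupies chr5:21543559-21575904 on the plus strand with up to 4 exons. All are protein-coding genes. Htra1 is overlapped on the opposite strand by the annotated span of Fgfr2, a fibroblast growth factor receptor gene with a mean of at most 0.377 TPM in any group. Lrrc17 is overlapped on the opposite strand by Fbxl13, an F-box protein gene at 0.265 TPM in CT26NYESO1 controls, 0.501 TPM in LL2 controls and 1.74 TPM in CT26 controls. The library kit keeps strand, but no source used here says whether the counting used it, so reads of the overlapping parts may be shared.

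The RefSeq promoter table matched 3 of the 4 genes, all but Dkk3. The promoters of Efemp1, Htra1 and Lrrc17 are shown because these were the ones matched. Each sequence below is from RefSeq on GRCm38.p6, runs 5′ to 3′ on the gene's plus strand over 300 bases, 250 before the RefSeq start and 50 after it, and has its CG dinucleotides in capitals. RefSeq and GENCODE starts can differ.
Efemp1, chr11:28852955-28853254: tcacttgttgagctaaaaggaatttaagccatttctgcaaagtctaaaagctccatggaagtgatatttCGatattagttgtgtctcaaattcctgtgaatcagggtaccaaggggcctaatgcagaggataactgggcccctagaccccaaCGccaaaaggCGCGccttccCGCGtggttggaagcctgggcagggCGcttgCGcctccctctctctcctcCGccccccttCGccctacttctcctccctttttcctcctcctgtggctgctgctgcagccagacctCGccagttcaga
Htra1, chr7:130935953-130936252: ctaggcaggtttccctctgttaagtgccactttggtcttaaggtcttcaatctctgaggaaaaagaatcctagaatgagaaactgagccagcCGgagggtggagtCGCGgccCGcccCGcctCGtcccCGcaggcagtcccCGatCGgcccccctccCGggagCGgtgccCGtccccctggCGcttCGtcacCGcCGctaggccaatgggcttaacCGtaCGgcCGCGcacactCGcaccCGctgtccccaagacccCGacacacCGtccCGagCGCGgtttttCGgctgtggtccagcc
Lrrc17, chr5:21543277-21543576: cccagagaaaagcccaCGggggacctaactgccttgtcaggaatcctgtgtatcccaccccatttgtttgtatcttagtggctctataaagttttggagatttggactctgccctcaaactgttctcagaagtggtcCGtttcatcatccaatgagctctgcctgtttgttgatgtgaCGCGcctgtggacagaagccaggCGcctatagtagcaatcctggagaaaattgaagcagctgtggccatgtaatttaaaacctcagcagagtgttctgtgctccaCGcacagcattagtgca

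The 3 promoters differed in base composition. That of Htra1 held 28 CG dinucleotides and was 65.0% G or C, that of Efemp1 held 11 and was 54.3% G or C, and that of Lrrc17 held 6 and was 48.7% G or C. Over 32851 promoters of the same length the median was 7 CG dinucleotides, with quartiles of 3 and 20, and 52.7% G or C. The Htra1 promoter was thus above the upper quartile in CG count and the other two were between the quartiles.

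A search of both strands for 7 short motifs found none that the 3 promoters shared. The GC box GGGCGG, present in 35.7% of all promoters, began 29 bases before the start of Efemp1 and 139 bases before that of Htra1. The AP-1 motif TGANTCA, present in 7.81%, began 154 bases before the start of Efemp1. The CCAAT box, present in 37.4%, began 48 bases before the start of Htra1 and 102 bases before that of Lrrc17. The TATA box TATAAA, present in 13.6%, began 166 bases before the start of Lrrc17. No 2 of these matches overlapped. The letters of the TEAD motif GGAATG, the TCF/LEF motif ATCAAAG and the E-box CACGTG were not in these windows and were in 14.7%, 3.73% and 7.15% of all promoters.

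Efemp1 was the member with the lowest share of its CT26 level in CT26NYESO1 controls. It measured 2.96, 3.50 and 1.77 TPM in the 3 CT26NYESO1 controls, 80.1, 68.5 and 69.6 TPM in LL2 controls, and 713, 753 and 683 TPM in CT26 controls. With OK-432 it measured 2.44, 2.62 and 4.39 TPM in CT26NYESO1 tumours, 71.2, 77.4 and 67.5 TPM in LL2 tumours, and 653, 716 and 690 TPM in CT26 tumours. No library of any tumour type reached the range of another, and LL2 lay between CT26NYESO1 and CT26. Control means were 2.74 ± 0.886 TPM in CT26NYESO1, 72.7 ± 6.41 TPM in LL2 and 716 ± 35.0 TPM in CT26 (SD, n = 3 each), which put CT26NYESO1 at 0.383% and LL2 at 10.2% of CT26. The CT26 mean was 261-fold the CT26NYESO1 mean. With OK-432 the shares were 0.459% for CT26NYESO1 and 10.5% for LL2.

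Htra1, the protease, was the most abundant of the 4 genes in each of the 6 groups. It measured 11.9, 12.6 and 7.82 TPM in CT26NYESO1 controls, 217, 228 and 234 TPM in LL2 controls, and 938, 1133 and 760 TPM in CT26 controls. With OK-432 it measured 11.4, 11.6 and 13.4 TPM in CT26NYESO1 tumours, 228, 235 and 218 TPM in LL2 tumours, and 989, 888 and 931 TPM in CT26 tumours. The 3 tumour types again did not overlap, and the CT26 controls were the most spread group of this gene in TPM. Control means were 10.8 ± 2.60 TPM in CT26NYESO1, 226 ± 8.50 TPM in LL2 and 943 ± 186 TPM in CT26 (SD, n = 3 each). CT26NYESO1 controls stood at 1.14% and LL2 controls at 24.0% of CT26 controls, and the CT26 mean was 87.4-fold the CT26NYESO1 mean.

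Lrrc17, the leucine-rich repeat protein, had the same order of tumours. It measured 1.05, 1.52 and 0.623 TPM in CT26NYESO1 controls, 55.3, 44.2 and 59.6 TPM in LL2 controls, and 214, 248 and 188 TPM in CT26 controls. With OK-432 it measured 0.868, 0.634 and 1.72 TPM in CT26NYESO1 tumours, 45.8, 56.2 and 25.4 TPM in LL2 tumours, and 243, 236 and 239 TPM in CT26 tumours. Replicate 3 of the LL2 OK432 group was the lowest LL2 library and still lay above all CT26NYESO1 libraries. Control means were 1.06 ± 0.446 TPM in CT26NYESO1, 53.0 ± 7.94 TPM in LL2 and 216 ± 30.2 TPM in CT26 (SD, n = 3 each). CT26NYESO1 controls stood at 0.492% and LL2 controls at 24.5% of CT26 controls, and the CT26 mean was 203-fold the CT26NYESO1 mean.

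Dkk3 had another order, with its lowest mean in LL2. It measured 1.92, 1.33 and 1.59 TPM in CT26NYESO1 controls, 0.608, 0.344 and 0.498 TPM in LL2 controls, and 238, 270 and 220 TPM in CT26 controls. With OK-432 it measured 1.68, 0.905 and 1.495 TPM in CT26NYESO1 tumours, 0.353, 0.516 and 1.03 TPM in LL2 tumours, and 237, 236 and 244 TPM in CT26 tumours. LL2 and CT26NYESO1 did not overlap among controls and did overlap with OK-432, so their order did not exceed the spread of the treated libraries. Control means were 1.61 ± 0.297 TPM in CT26NYESO1, 0.483 ± 0.132 TPM in LL2 and 242 ± 25.3 TPM in CT26 (SD, n = 3 each). CT26NYESO1 controls stood at 0.666% and LL2 controls at 0.199% of CT26 controls, and the CT26 mean was 150-fold the CT26NYESO1 mean.

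**Figure D1:**
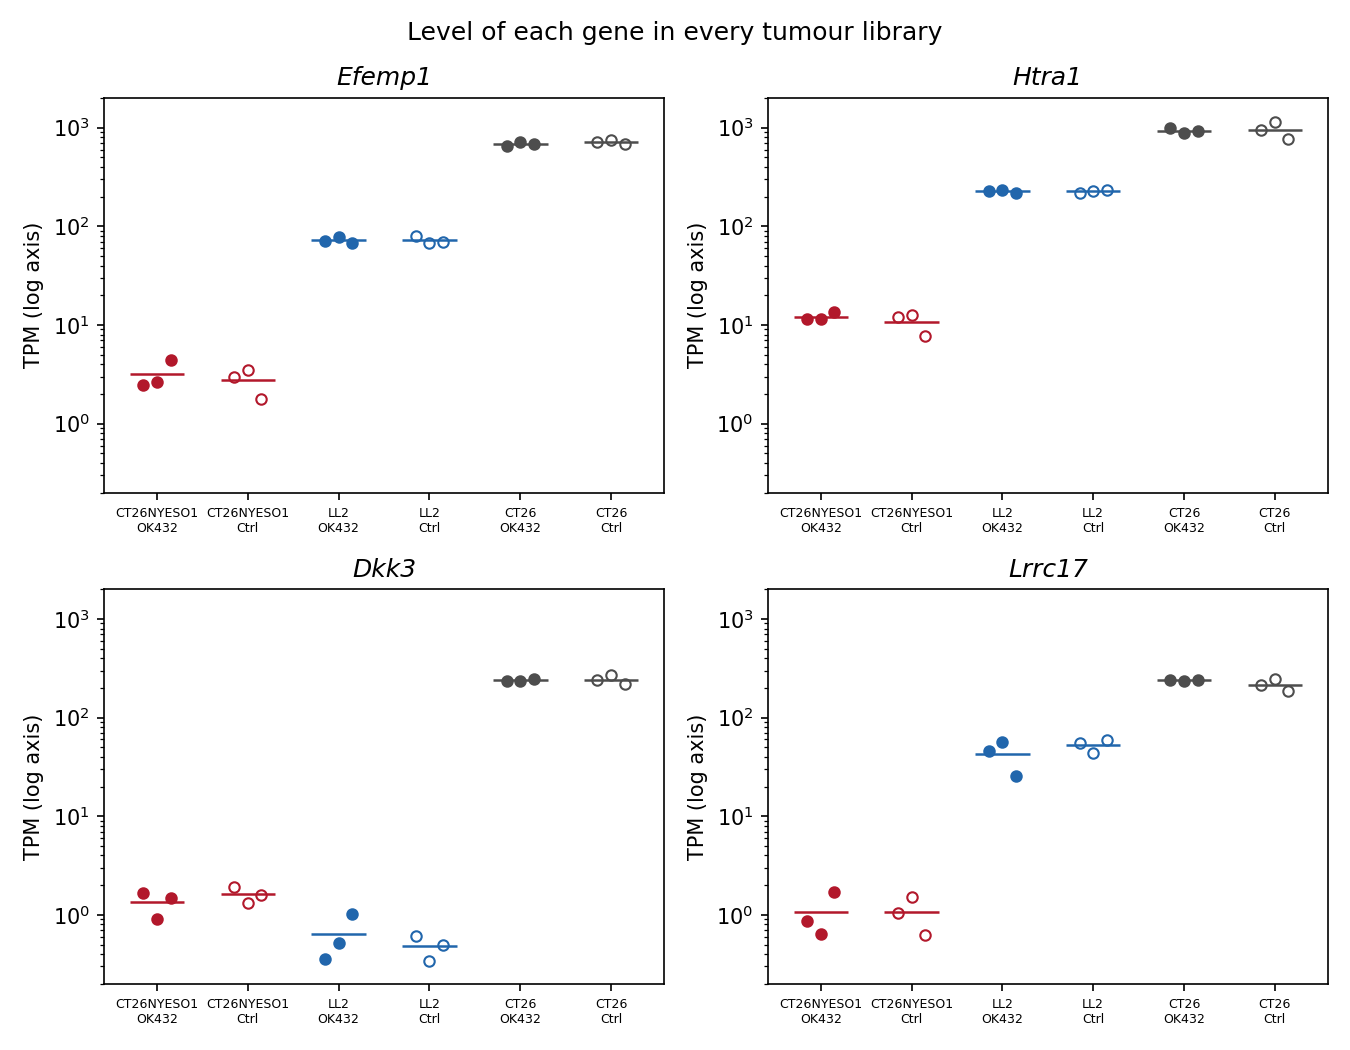
Level of each gene in TPM on a log axis in the 18 libraries, with filled points for OK432, open points for Ctrl and a line at each group mean. Efemp1, Htra1 and Lrrc17 run from CT26NYESO1 at the bottom through LL2 to CT26 at the top, while Dkk3 reaches at most 1.03 TPM in LL2 and has its lowest CT26 library at 220 TPM.

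Together the 4 genes took 0.00162% of the transcripts in CT26NYESO1 controls, 0.0352% in LL2 controls and 0.212% in CT26 controls. With OK-432 the sums were 0.00177% in CT26NYESO1, 0.0342% in LL2 and 0.210% in CT26. In CT26 controls Htra1 ranked 134 and Efemp1 179 by level among the 16816 tested genes, and Dkk3 ranked 608 and Lrrc17 707. Among the differences of CT26NYESO1 from CT26 controls on the log2(TPM + 1) scale, Efemp1 had the lowest value of all tested genes at -7.61. Lrrc17 ranked 3 at -6.73, Dkk3 ranked 4 at -6.54 and Htra1 ranked 5 at -6.33. Rhox2h, a homeobox gene, stood between them at rank 2 with -6.83, and Tex13b, the next gene after Htra1, was at -6.25. These ranks depend on the added 1, which shrinks differences of genes near 0. Cd200r2 ranked 7 at -6.22, with means of 0.0358 TPM in CT26NYESO1 controls and 76.4 TPM in CT26 controls. Its ratio of means was thus larger than that of Efemp1, at 2.74 and 716 TPM. Of the differences of LL2 from CT26 controls, Dkk3 ranked 6 at -7.36, Efemp1 258 at -3.28, Htra1 813 at -2.04 and Lrrc17 838 at -2.01.

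The proportions among the 4 genes were not the same in the 3 tumours. Htra1 was 4.04 ± 0.605 times Efemp1 in CT26NYESO1 libraries, 3.14 ± 0.241 times in LL2 libraries and 1.34 ± 0.155 times in CT26 libraries (SD, n = 6 each). The lowest ratio in CT26NYESO1, 3.06, was above the highest in CT26, 1.52. Lrrc17 was 0.0912 ± 0.0279 times Htra1 in CT26NYESO1, 0.210 ± 0.0529 times in LL2 and 0.244 ± 0.0175 times in CT26. Lrrc17 relative to Efemp1 differed less between the CT26 lines, at 0.356 ± 0.0637 in CT26NYESO1 and 0.325 ± 0.0343 in CT26, and was 0.656 ± 0.158 in LL2. Dkk3 was 0.551 ± 0.231 times Efemp1 in CT26NYESO1, 0.00778 ± 0.00382 times in LL2 and 0.343 ± 0.0172 times in CT26.

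Htra1 and Lrrc17 were each other's nearest gene in pattern out of 16816. The levels in CT26NYESO1 and CT26 chose the members, so their nearness to each other follows in part from the choice. Likeness was measured as the root mean square difference of log2(TPM + 1) profiles over the 18 libraries, each profile centred on its own mean, and most of each profile is the difference between the 3 tumour types. The distance of Htra1 and Lrrc17 was 0.34. Efemp1 had Lrrc17 as its nearest gene at 0.47 and Htra1 as the next at 0.60, followed by Gulp1, an adaptor for engulfment of dying cells, at 0.90 and Gm773 at 0.91. Htra1 was followed after Lrrc17 by Gm773 at 0.39, Gm5751 at 0.42 and Platr14 at 0.47. After Htra1 and Efemp1, Lrrc17 had Gm5751 at 0.61 and Gm773 at 0.64. Dkk3 was apart from the other three, with Efemp1 only its gene 252 in order of nearness. Its nearest genes were Capn6, a calpain-family gene, at 0.33, Cdkn2a, which codes for cell cycle inhibitors, at 0.37, Cd200r2, a receptor gene, at 0.43 and Pla2g5, a secreted phospholipase gene, at 0.45.

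Whether OK-432 changed the 4 genes was tested within each tumour type, and none of the 4 was called in any. A gene was called at a limma adjusted p under 0.05, with Benjamini-Hochberg adjustment over all tested genes. In CT26NYESO1 tumours 112 genes, or 0.666% of those tested, were called, in LL2 tumours 3 genes, or 0.0178%, and in CT26 tumours 0 genes, or 0%. At an unadjusted p under 0.05 the counts were 2727 in CT26NYESO1, 884 in LL2 and 689 in CT26. The CT26NYESO1 count was 673 without OK432 replicate 2 of that group, 4 without its OK432 replicate 3 and 5 without Ctrl replicate 2, and leaving out 13 of the 18 libraries in turn moved it by more than 1.5 times. Among the 4 genes the smallest unadjusted p was 0.159, for Lrrc17 in LL2.

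The OK432 and Ctrl values of each gene overlapped in each tumour type. For Efemp1 the effect, OK432 minus Ctrl in log2(TPM + 1), was 0.15 in CT26NYESO1 (limma adjusted p = 0.721), -0.01 in LL2 and -0.06 in CT26 (adjusted p = 1 for each), with a standard error of 0.163. For Htra1 it was 0.18 in CT26NYESO1 (limma adjusted p = 0.586) and 0.01 in both LL2 and CT26 (adjusted p = 1 for each), with a standard error of 0.143. For Dkk3 it was -0.16 in CT26NYESO1 (limma adjusted p = 0.664), 0.12 in LL2 and -0.01 in CT26 (adjusted p = 1 for each), with a standard error of 0.148. For Lrrc17 it was -0.00451 in CT26NYESO1, -0.37 in LL2 and 0.15 in CT26 (limma adjusted p = 1 for each), with a standard error of 0.252.

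Averaged over the 3 tumour types, none of the 4 genes was called either. The 95% interval of the fold, OK432 over Ctrl on the TPM + 1 scale, was 0.886 to 1.17 for Efemp1, 0.925 to 1.18 for Htra1, 0.765 to 1.18 for Lrrc17 and 0.872 to 1.12 for Dkk3. The average effects were 0.02, 0.06, -0.08 and -0.02 in the same order of genes, with limma adjusted p-values of 0.957, 0.842, 0.902 and 0.969, and 29 genes or 0.172% of those tested were called. For Lrrc17 in LL2, the estimate farthest from 0, the interval was 0.531 to 1.12, and the effect was -0.05 without OK432 replicate 3 of that group and -0.61 without OK432 replicate 2. In CT26NYESO1 the intervals were 0.872 to 1.41 for Efemp1 and 0.686 to 1.45 for Lrrc17. The added 1 understates changes of values near or under 1 TPM, as for Lrrc17 in CT26NYESO1 and Dkk3 in CT26NYESO1 and LL2, and so also their averages. Dkk3 in LL2 averaged 0.633 TPM in OK432 libraries and 0.483 TPM in Ctrl libraries, which gave an effect of 0.12. A difference of the effect between tumour types was not called for any of the 4 genes either, with limma adjusted p-values of 0.938 for Efemp1, 0.935 for Htra1, 0.837 for Lrrc17 and 0.877 for Dkk3, where 1 gene in all, or 0.00595%, was called.

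**Figure D2:**
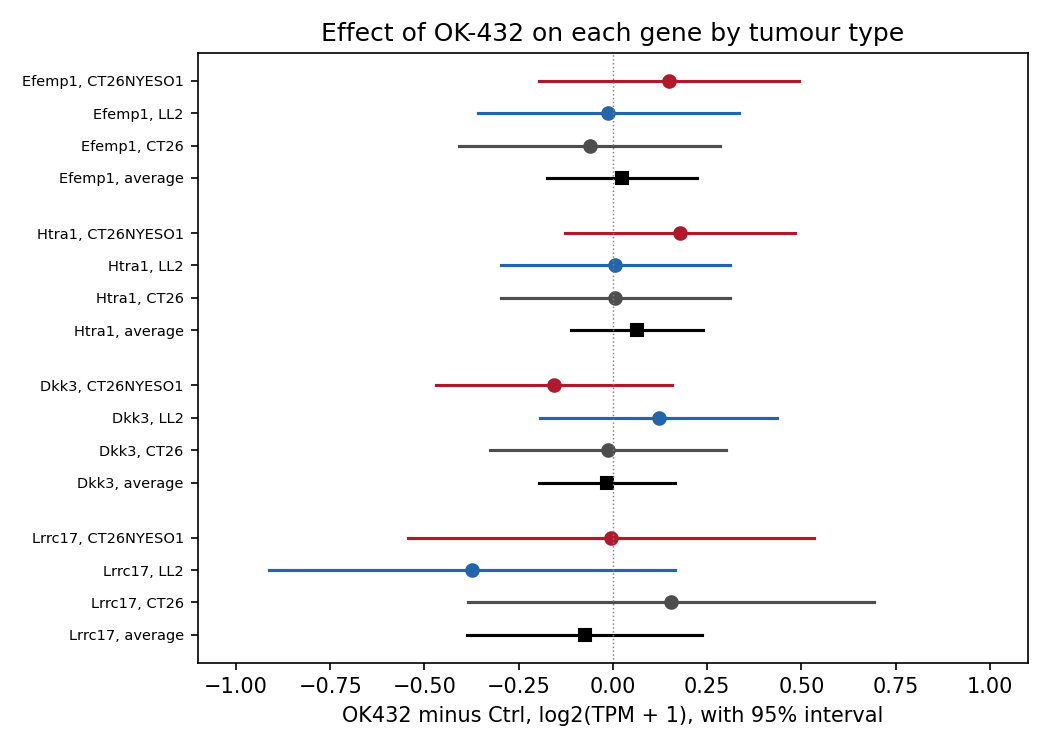
Effect of OK-432 on each gene, OK432 minus Ctrl in log2(TPM + 1), with its 95% interval, in CT26NYESO1 (red), LL2 (blue), CT26 (grey) and as their average (black squares). All 16 intervals include 0, and the farthest estimate from 0 is -0.37 for Lrrc17 in LL2.

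The family and pathway genes around the 4 members were compared between CT26NYESO1 and CT26 controls, where 64.9% of tested genes were called, 21.1% higher and 43.9% lower in CT26NYESO1. After median-of-ratios scaling the split was 30.5% higher and 31.3% lower. The members' own values were used to choose them, so the 4 are left out of the lists below. The group values below are means ± SD of 3 control libraries in TPM, and p-values are from limma.

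Around Efemp1, 2 fibulins fell and 2 rose of 5 tested, with a median log2 difference of 0.08 against -0.18 over all genes. Fbln2, a basement membrane and elastic fibre fibulin, fell to 170 ± 5.87 TPM in CT26NYESO1, against 834 ± 91.8 TPM in CT26 (log2 difference -2.28, adjusted p = 1.97e-05). Fbln5, which organises elastic fibres, fell to 16.3 ± 5.42 TPM in CT26NYESO1, against 60.5 ± 16.0 TPM in CT26 (-1.84). Fbln1 rose to 2.08 ± 0.874 TPM in CT26NYESO1, against 0.626 ± 0.261 TPM in CT26 (0.90). Of the 2 rises, 1 was lost without CT26 Ctrl replicate 3.

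Of 11 tested genes of elastic fibres and microfibrils, 7 fell and 2 rose, with a median of -1.28. Without CT26 Ctrl replicate 2, 1 of the 2 rises was lost and another gene was called higher, and 3 rose after scaling. The crosslinking enzyme Lox measured 17.1 ± 7.12 TPM in CT26NYESO1 and 282 ± 72.3 TPM in CT26 (log2 difference -4.00, adjusted p = 1.96e-05). The related Loxl1 measured 10.2 ± 0.977 TPM in CT26NYESO1 and 178 ± 32.6 TPM in CT26 (-3.99). Fibrillin-1, coded by Fbn1, measured 14.2 ± 2.55 TPM in CT26NYESO1 and 127 ± 22.7 TPM in CT26 (-3.07). The EGF receptor list went the other way, with 6 of 8 tested genes higher and 1, the receptor Egfr itself, lower at 1.01 ± 0.261 TPM in CT26NYESO1 and 4.43 ± 0.414 TPM in CT26. The ligand Tgfa rose to 6.21 ± 0.454 TPM in CT26NYESO1, against 0.148 ± 0.0659 TPM in CT26, Btc to 5.64 ± 1.96 TPM in CT26NYESO1 against 0.125 ± 0.0303 TPM in CT26, and Areg to 4.83 ± 0.498 TPM in CT26NYESO1 against 0.390 ± 0.270 TPM in CT26. Timp3, which fibulin-3 binds, was at 24.4 ± 2.77 TPM in CT26NYESO1 and 24.999 ± 0.921 TPM in CT26 and was not called (log2 difference -0.04, adjusted p = 0.882).

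Around Dkk3, 3 of 4 tested Dickkopf and receptor genes fell, and the fourth, Lrp5, was called higher only after median-of-ratios scaling. Kremen1, a Dickkopf receptor, measured 22.7 ± 1.16 TPM in CT26NYESO1 and 63.5 ± 6.25 TPM in CT26 (log2 difference -1.44, adjusted p = 1.61e-11). The Wnt antagonist Dkk2 measured 11.5 ± 5.59 TPM in CT26NYESO1 and 27.4 ± 7.34 TPM in CT26 (-1.25). The coreceptor Lrp6 measured 25.5 ± 2.37 TPM in CT26NYESO1 and 36.8 ± 2.74 TPM in CT26 (-0.51). None of 3 tested other Wnt antagonists was called, of which Sfrp2 was at 1.82 ± 1.54 TPM in CT26NYESO1 and 1.27 ± 0.603 TPM in CT26. Of 5 tested Wnt target genes, Lef1 rose to 3.26 ± 0.378 TPM in CT26NYESO1, against 0.659 ± 0.144 TPM in CT26. Apcdd1 fell to 2.01 ± 0.264 TPM in CT26NYESO1, against 4.28 ± 0.446 TPM in CT26. Znrf3 was also called lower (-0.33), but not after scaling (-0.13) nor without CT26 Ctrl replicate 2.

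Around Htra1, the other HtrA proteases did not show a difference of the size of Htra1, which was picked for its difference. The mitochondrial Htra2 fell to 93.9 ± 7.02 TPM in CT26NYESO1, against 126 ± 5.60 TPM in CT26 (log2 difference -0.43, adjusted p = 3.14e-05). The secreted Htra3 measured 5.49 ± 1.55 TPM in CT26NYESO1 and 5.81 ± 1.83 TPM in CT26 and was not called. Of 14 tested genes for TGF-beta ligands, latency proteins, receptors and targets, 9 fell and 3 rose, with a median of -0.74. The receptor Tgfbr2 fell to 42.9 ± 2.68 TPM in CT26NYESO1, against 232 ± 50.6 TPM in CT26 (-2.39). The latency-associated matrix proteins Ltbp4 and Ltbp2 rose, Ltbp4 to 180 ± 27.9 TPM in CT26NYESO1 against 40.9 ± 6.69 TPM in CT26, and Ltbp2 to 9.51 ± 1.13 TPM in CT26NYESO1 against 1.58 ± 0.375 TPM in CT26.

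Around Lrrc17, 5 of 13 tested extracellular leucine-rich repeat proteins fell and 5 rose, with a median of -0.56. Of the falls, that of Tsku (-0.46) was not called after scaling. Podnl1 fell to 15.7 ± 2.40 TPM in CT26NYESO1, against 146 ± 8.82 TPM in CT26 (log2 difference -3.14, adjusted p = 1.52e-11). Biglycan, coded by Bgn, fell to 169 ± 14.3 TPM in CT26NYESO1, against 1111 ± 88.8 TPM in CT26 (-2.71). Prelp rose to 16.5 ± 4.28 TPM in CT26NYESO1, against 1.35 ± 0.453 TPM in CT26 (2.89). Of 7 tested genes of the RANKL axis and of osteoclasts, 3 fell and 1 rose. The RANKL receptor gene Tnfrsf11a fell to 8.47 ± 1.55 TPM in CT26NYESO1, against 13.2 ± 1.68 TPM in CT26, and the decoy receptor gene Tnfrsf11b rose to 1.47 ± 0.316 TPM in CT26NYESO1, against 0.638 ± 0.249 TPM in CT26. Acp5, an osteoclast and macrophage phosphatase, was called lower (-1.28), but not without CT26 Ctrl replicate 2 or CT26NYESO1 Ctrl replicate 3.

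**Figure D3:**
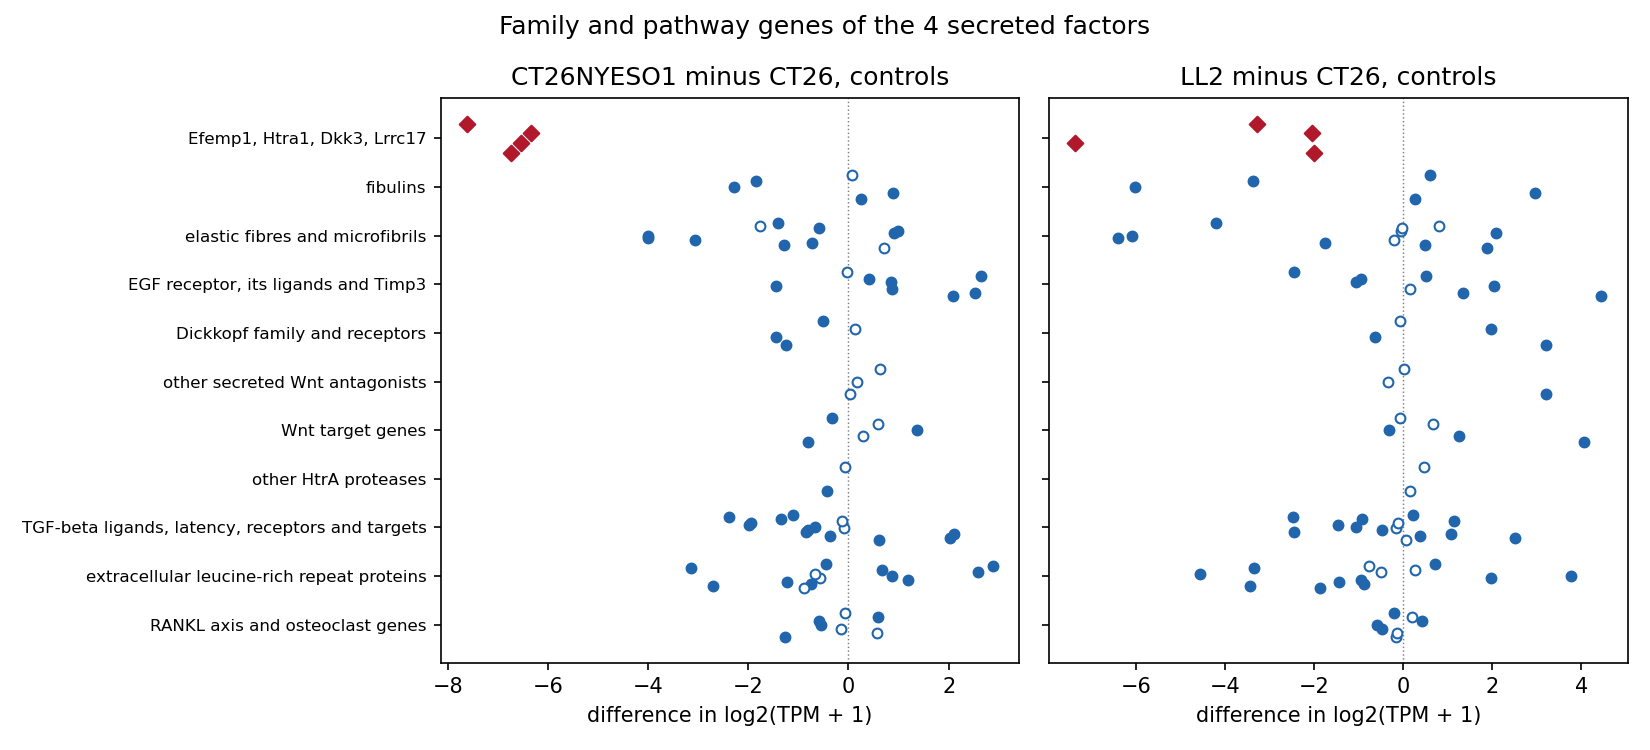
Difference in log2(TPM + 1) of CT26NYESO1 from CT26 controls (left) and of LL2 from CT26 controls (right) for the 4 genes (red diamonds) and the tested genes of 10 lists, filled where called by limma and open where not. On the left the 4 genes, picked for this difference, lie between -7.61 and -6.33 and no list gene is under -4.00.

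Between LL2 and CT26 controls 68.8% of tested genes were called, 29.1% higher and 39.7% lower in LL2. After median-of-ratios scaling the split was 34.3% higher and 34.8% lower. This comparison shares the CT26 controls with the one above. Around Efemp1, Fbln2 fell to 11.998 ± 1.71 TPM in LL2, against 834 ± 91.8 TPM in CT26 (log2 difference -6.01, adjusted p = 6.14e-10), Fbln5 to 4.86 ± 1.02 TPM in LL2, against 60.5 ± 16.0 TPM in CT26, and Fbln1 rose to 11.7 ± 1.65 TPM in LL2, against 0.626 ± 0.261 TPM in CT26. In all 3 fibulins rose and 2 fell of 5. The rise of Hmcn2 (0.61), at 1.45 TPM in LL2 and 0.612 TPM in CT26, was not called without any of 9 single libraries. Of 11 elastic fibre genes 3 rose and 4 fell, among them Lox at 2.33 ± 0.582 TPM in LL2 and 282 ± 72.3 TPM in CT26 (-6.39), Loxl1 at 1.64 ± 0.233 TPM in LL2 and 178 ± 32.6 TPM in CT26 (-6.08), and Mfap5 at 2.58 ± 0.750 TPM in LL2 and 64.5 ± 11.1 TPM in CT26 (-4.20). Efemp1 differed by -3.28 on the same scale, less than Lox, Loxl1, Mfap5, Fbln2 or Fbln5 (-3.37).

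Of 8 genes of the EGF receptor list 4 rose and 3 fell in LL2, among them Areg at 29.0 ± 0.488 TPM in LL2 and 0.390 ± 0.270 TPM in CT26, Egfr at 21.3 ± 1.13 TPM in LL2 and 4.43 ± 0.414 TPM in CT26, and Timp3 at 3.81 ± 0.592 TPM in LL2 and 24.999 ± 0.921 TPM in CT26. In the Dickkopf list Dkk2 rose to 257 ± 18.9 TPM in LL2, against 27.4 ± 7.34 TPM in CT26 (log2 difference 3.21, adjusted p = 3.53e-07). Dkk3 measured at most 1.03 TPM in the same tumour type. Lrp5 also rose, to 47.1 ± 1.81 TPM in LL2, against 11.4 ± 1.83 TPM in CT26, and Kremen1 fell to 40.3 ± 1.54 TPM in LL2, against 63.5 ± 6.25 TPM in CT26. Frzb, a secreted Wnt antagonist, rose to 8.49 ± 1.68 TPM in LL2, against 0.0146 ± 0.0252 TPM in CT26. Of 5 Wnt target genes 2 rose, Apcdd1 to 87.0 ± 5.17 TPM in LL2, against 4.28 ± 0.446 TPM in CT26, and Axin2 to 1.62 ± 0.1501 TPM in LL2, against 0.0959 ± 0.0320 TPM in CT26. Lef1 was called lower (-0.31), but not after scaling, nor without CT26 Ctrl replicate 1 or 2 or LL2 Ctrl replicate 1 or 3.

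Neither tested HtrA protease was called in LL2. Htra2 measured 140 ± 13.1 TPM in LL2, against 126 ± 5.60 TPM in CT26, though Htra2 was called higher after scaling and 1 of the 2 was called higher without LL2 Ctrl replicate 1 or CT26NYESO1 Ctrl replicate 2. Of 14 TGF-beta genes 5 rose and 6 fell, among them Ltbp2 at 13.6 ± 1.55 TPM in LL2 and 1.58 ± 0.375 TPM in CT26, and Tgfbr2 at 40.7 ± 1.74 TPM in LL2 and 232 ± 50.6 TPM in CT26. Of 13 leucine-rich repeat proteins 3 rose and 7 fell, among them Ogn at 7.10 ± 2.14 TPM in LL2 and 192 ± 54.8 TPM in CT26, Bgn at 102 ± 10.8 TPM in LL2 and 1111 ± 88.8 TPM in CT26, and Lrrc15 at 24.4 ± 10.8 TPM in LL2 and 0.753 ± 0.00802 TPM in CT26. Of 7 RANKL axis genes 1 rose and 3 fell, with Ocstamp (-0.58) and Nfatc1 (-0.48) lower and Tnfrsf11a higher (0.42), which was not called without CT26 Ctrl replicate 1 or LL2 Ctrl replicate 1. With OK-432, no gene of these 10 lists was called in any tumour type. After scaling, or without CT26 Ctrl replicate 3, 1 TGF-beta gene was called higher in CT26NYESO1, and without OK432 replicate 2 of that group 1 TGF-beta and 1 leucine-rich repeat gene were.

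Markers of cells that a tumour piece can hold also differed between the tumours. In bulk samples fewer cells of a type and less RNA per cell cannot be told apart. Nor can marker RNA of the tumour cells themselves be told from that of other cells. The 11 fibroblast markers summed to 1323 to 1738 TPM in CT26NYESO1 controls, 3192 to 3900 TPM in LL2 controls and 6268 to 9440 TPM in CT26 controls. Of these 11, 8 were called lower and 2 higher in CT26NYESO1 than in CT26, and none was at 0 in all 3 libraries of a group. The 2 higher calls became 1 without CT26 Ctrl replicate 3 or without CT26NYESO1 Ctrl replicate 1 or 2. Of the lower calls, that of Dcn (-0.64) was lost after scaling and without CT26 Ctrl replicate 2 or CT26NYESO1 Ctrl replicate 3. That of Col1a2 was lost without CT26 Ctrl replicate 1 or 2. The platelet-derived growth factor receptor gene Pdgfra measured 19.3 ± 3.53 TPM in CT26NYESO1 and 320 ± 42.5 TPM in CT26 (log2 difference -3.99), Col3a1 measured 333 ± 129 TPM in CT26NYESO1 and 4203 ± 950 TPM in CT26 (-3.70), and Pi16 measured 4.10 ± 2.37 TPM in CT26NYESO1 and 56.3 ± 30.6 TPM in CT26 (-3.40). In LL2, 7 were called lower and 4 higher than in CT26, with Col1a2 at 26.7 ± 9.98 TPM in LL2 and 2373 ± 484 TPM in CT26. The order of the fibroblast sums by tumour was that of Efemp1, Htra1 and Lrrc17, but single markers did not all follow it. Pdgfra and Col3a1 did, with log2 differences from CT26 of -1.93 and -0.75 in LL2. Col3a1 was not called in LL2 after scaling, nor without CT26 Ctrl replicate 1 or 2 or LL2 Ctrl replicate 2. Another of the lower calls in LL2, Thy1 (-0.65), was lost without LL2 Ctrl replicate 3. Col1a2 was at -1.72 in CT26NYESO1 and -6.47 in LL2, and Lum at -1.34 in CT26NYESO1 and 3.41 in LL2. The part of fibroblasts in the levels of the 3 genes was not tested.

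The 6 endothelial markers summed to 51.2 to 71.4 TPM in CT26NYESO1 controls, 66.8 to 101 TPM in LL2 controls and 296 to 349 TPM in CT26 controls, and all 6 were called lower in both tumours than in CT26. Of 6 pericyte markers 5 were called lower in both, with sums of 33.8 to 52.0 TPM in CT26NYESO1 controls, 34.9 to 47.7 TPM in LL2 controls and 53.5 to 79.9 TPM in CT26 controls. The count in LL2 became 2 without CT26 Ctrl replicate 1 or LL2 Ctrl replicate 2, and 1 pericyte marker was called higher in CT26NYESO1 without Ctrl replicate 2 of that group. The 7 macrophage markers summed to 2396 to 3239 TPM in CT26NYESO1 controls, 1352 to 1590 TPM in LL2 controls and 2728 to 3094 TPM in CT26 controls, and 2 were called lower in CT26NYESO1 and all 7 in LL2. After scaling, Adgre1 was no longer called in CT26NYESO1 and Cd68 was called higher. Of the 6 neutrophil markers, 5 were tested and 1 was called lower in each tumour (2 in CT26NYESO1 without CT26 OK432 replicate 2 or CT26NYESO1 OK432 replicate 1 or 2), and these sums were 10.6 to 16.9 TPM in CT26NYESO1 controls, 19.4 to 33.0 TPM in LL2 controls and 26.6 to 32.1 TPM in CT26 controls. Neutrophil markers were the only ones of the marker lists called with OK-432, 3 of 5 higher in CT26NYESO1 beside 0.410% of all tested genes higher. Averaged over the tumour types 4 of 5 were called higher, beside 0.167% of all tested genes. In OK432 libraries they summed to 81.3 to 685 TPM in CT26NYESO1, 132 to 217 TPM in LL2 and 100 to 176 TPM in CT26. The CT26NYESO1 count was 5 without OK432 replicate 2 of that group and 1 without its OK432 replicate 3 or Ctrl replicate 2. Without OK432 replicate 2, 3 macrophage markers were also called lower and 1 fibroblast marker higher in CT26NYESO1, and neutrophil markers were called higher in LL2, 3 of 5, and in CT26, 2 of 5.

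Skeletal muscle markers varied within groups, with sums of 0.971 to 120 TPM in CT26NYESO1 controls, 72.2 to 153 TPM in LL2 controls and 1.03 to 2.32 TPM in CT26 controls. None of 5 tested was called in CT26NYESO1 and 4 were called higher in LL2. The count in CT26NYESO1 became 4 without Ctrl replicate 2 of that group, and that in LL2 became 2 without CT26 Ctrl replicate 1 or 2 and 1 without LL2 Ctrl replicate 3. Epithelial markers were nearly absent from CT26 tumours, a carcinoma line, where the 8 markers summed to 1.59 to 1.62 TPM in controls and Epcam and Cldn3 were listed at 0 in all 3. They summed to 10.5 to 15.7 TPM in CT26NYESO1 controls, where Krt18 was called higher at 12.2 ± 2.86 TPM in CT26NYESO1, against 0.203 ± 0.179 TPM in CT26. They summed to 374 to 569 TPM in LL2 controls, where Krt8 measured 204 ± 57.4 TPM and Krt18 272 ± 40.3 TPM.

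Within groups the libraries that were low in the members were low in some marker sums and high in others. Among CT26NYESO1 controls, replicate 3 had the lowest Efemp1, Htra1 and Lrrc17, the lowest fibroblast sum, 1323 TPM, and the lowest endothelial sum, 51.2 TPM, but the highest pericyte sum, 52.0 TPM. Dkk3 was lowest there in replicate 2. Among CT26NYESO1 OK432 libraries, replicate 3 had the highest Efemp1, Htra1 and Lrrc17, the highest fibroblast sum, 1947 TPM, and the highest endothelial sum, 90.1 TPM, but the lowest pericyte sum, 26.8 TPM, and the lowest macrophage sum, 1747 TPM. In LL2 controls, replicate 2 had the lowest Efemp1, Lrrc17 and Dkk3. It also had the lowest fibroblast sum, 3192 TPM, endothelial sum, 66.8 TPM, and pericyte sum, 34.9 TPM, but the highest macrophage sum, 1590 TPM. In LL2 OK432 tumours, replicate 3 had the lowest Efemp1, Htra1 and Lrrc17 and the lowest fibroblast sum, 2726 TPM. It also had the highest Dkk3, 1.03 TPM, endothelial sum, 119 TPM, and pericyte sum, 74.6 TPM. In CT26 OK432 tumours, replicate 3 had the lowest fibroblast sum, 7247 TPM, and was lowest in none of the 4 genes. Replicate 2 of that group was lowest in Htra1, Lrrc17 and Dkk3. It was also lowest in the endothelial sum, 249 TPM, and the pericyte sum, 43.6 TPM, but highest in the macrophage sum, 3330 TPM. In CT26 controls replicate 3 was lowest in all 4 genes, in the fibroblast sum, 6268 TPM, and in the pericyte sum, 53.5 TPM, and highest in the endothelial sum, 349 TPM. Skeletal muscle sums went with pericyte sums in some groups. In CT26NYESO1, replicate 3 had the highest muscle sum of the controls, 120 TPM, and the lowest with OK-432, 2.47 TPM. In LL2 OK432 tumours replicate 3 had the highest, 364 TPM. In CT26 controls replicate 3 had the highest muscle sum, 2.32 TPM, but the lowest pericyte sum. Replicate 2 was in the middle for muscle in LL2 controls, 102 TPM, and in CT26 OK432 tumours, 15.9 TPM. These are 3 libraries a group, and none of these relations was tested.

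**Figure D4:**
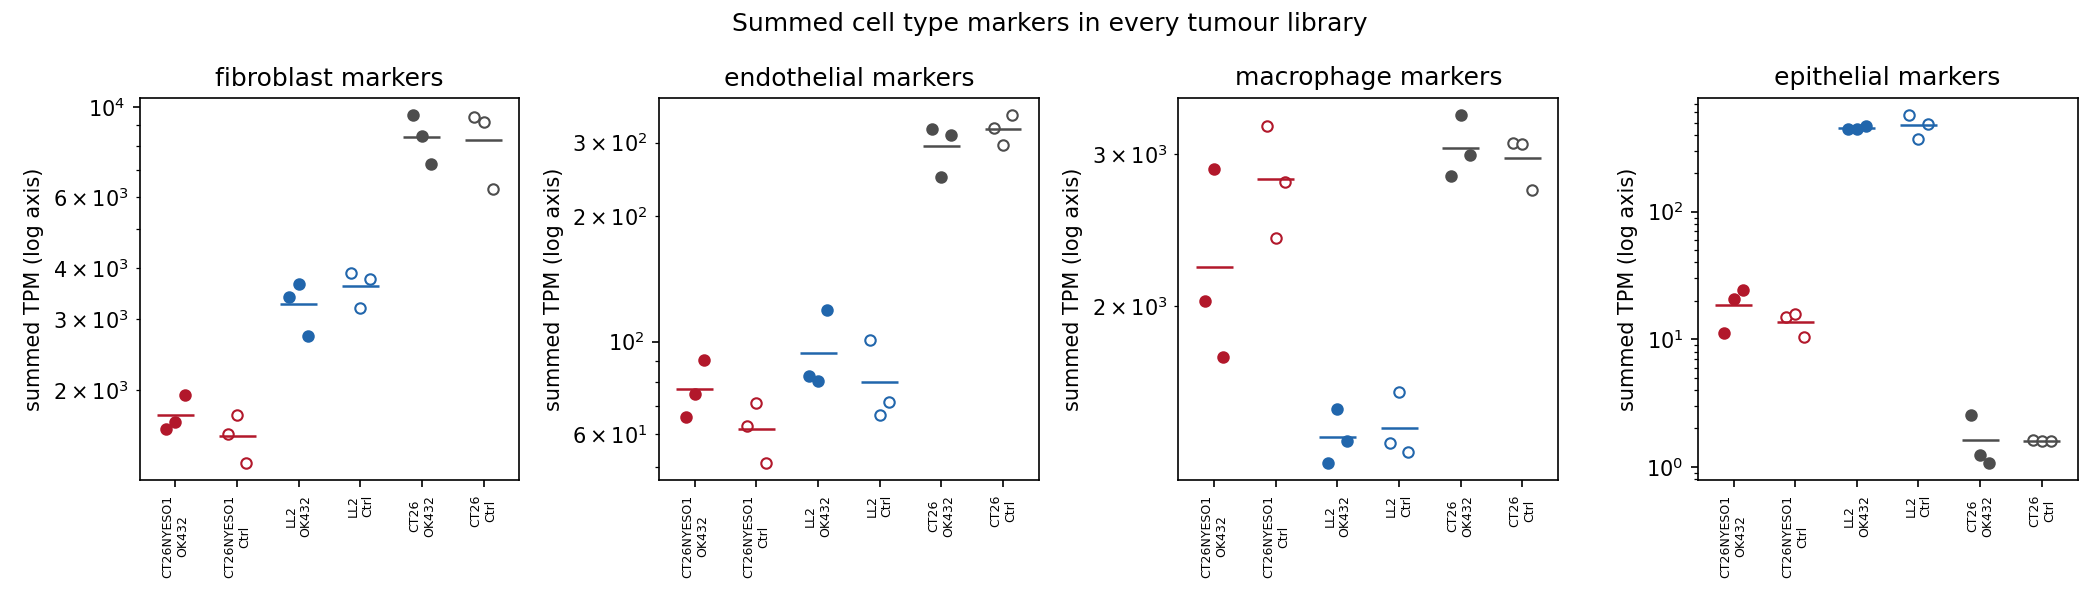
Summed TPM of fibroblast, endothelial, macrophage and epithelial markers on log axes in the 18 libraries, with filled points for OK432, open points for Ctrl and a line at each group mean. The fibroblast sums of CT26NYESO1 controls end at 1738 TPM, under the lowest CT26 control at 6268 TPM, and the macrophage sums of the same groups overlap.

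The 5 nearest tested protein-coding genes on each side of each member differed less than the members, which were picked for a large difference. Of these 40 neighbours, 32 or 80.0% were lower in CT26NYESO1 than in CT26 controls, 1 was higher and 7 were not called, beside 43.9% lower over all tested genes. Their median log2 difference was -0.47, with a range of -1.79 to 1.16, against -0.18 over all genes and -7.61 to -6.33 for the members. After median-of-ratios scaling, 26 were lower and 2 higher, beside 31.3% lower over all genes. All tested genes include genes that do not code for proteins, so their shares and median are of an unlike set. The added 1 understates differences of low neighbours, such as Fbxl13 at 0.265 TPM in CT26NYESO1 and 1.74 TPM in CT26 controls. Neighbours on a chromosome are not independent of each other.

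All 10 neighbours of Efemp1 and all 10 of Htra1 were called lower, as were 7 of 10 for Lrrc17 and 5 of 10 for Dkk3, beside 43.9% of all tested genes. Some of these calls depended on scaling. After median-of-ratios scaling Fancl near Efemp1, Nsmce4a, Tacc2 and Ikzf5 near Htra1, and Dnajc2 near Lrrc17 were no longer called. Not all neighbours were close, and the farthest lay 5082 kb from its member, Efemp1. On either side of Efemp1, Pnpt1, a mitochondrial RNA exonuclease gene 204 kb away, was at -0.41 (limma adjusted p = 0.000276). Gm6685, 513 kb away, was at -0.42, which was not called after scaling or without any of 9 single libraries. On either side of Htra1, Plekha1, 22.8 kb away, was at -1.15 and 2310057M21Rik, 353 kb away, at -0.51. On either side of Dkk3, the ubiquitin protease gene Usp47, 4.36 kb away, was at -0.70 and Mical2, 66.8 kb away, at 0.15. Mical2 was not called before scaling and was called higher after it. Next to Lrrc17, the overlapping Fbxl13 was at -1.11 and Armc10, 69.9 kb away, at -0.13, which was not called. Parva, an actin and integrin-linked adaptor gene second from Dkk3, was the neighbour called higher, at 1.16, and is named after its value was seen.

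Between LL2 and CT26 controls 27 of the 40 neighbours, or 67.5%, were lower and 7 higher, and 23 were lower after scaling. Over all tested genes, which again are not only protein-coding, 39.7% were lower. Around Dkk3, which measured 0.199% of its CT26 level in LL2 controls, the nearest neighbours were at -0.21 for Usp47, which was not called after scaling, and -0.22 for Mical2, which was not called.

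**Figure D5:**
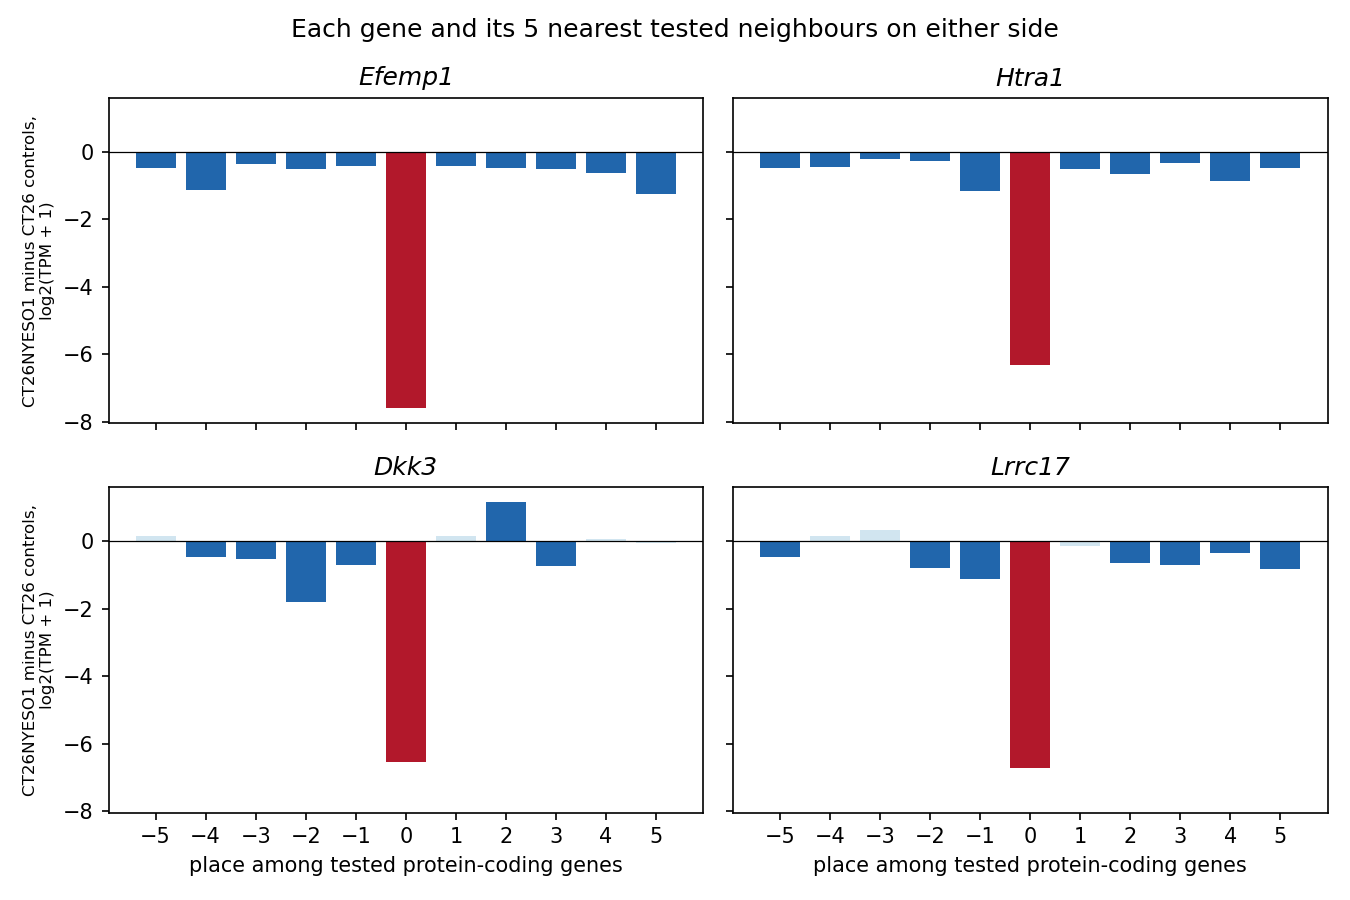
Difference in log2(TPM + 1) of CT26NYESO1 from CT26 controls for each member (red, place 0) and its 5 nearest tested protein-coding genes on each side in genome order, dark blue where called by limma and pale where not. The members, picked for this difference, reach -6.33 or lower and no neighbour is under -1.79.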

How the data were processed

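The authors deposited 1 table of TPM values for 18 tumour libraries. Reads were processed with Trim Galore 0.6.5, STAR 2.7.3a, StringTie 2.1.2 and the genome build mm10, per the submitters' processing notes, and the sources used here do not state the annotation, strand setting or filters. Depth cannot be read from TPM, so no counting interval is given, and values near 1 TPM rest on an unknown number of reads.

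Samples were grouped by their labels into 6 groups of 3. Genes with at least 1 TPM in at least 3 libraries were analysed as log2(TPM + 1), so log2 differences understate changes of low genes. In R 4.3.3, limma 3.58.1 fitted 6 group means without covariates (12 residual degrees of freedom, robust and trended empirical Bayes), with two-sided tests and Benjamini-Hochberg adjustment over 16816 genes. The fit was tested on simulated data. Of the table's 55291 symbols, 53292 were found in GENCODE M21. Promoters came from RefSeq.

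The members and the 17 gene lists were chosen with earlier results of these data known. Named genes are the members, up to 3 called genes per list with the largest absolute log2 difference, or its first tested gene where none was called, the 4 nearest genes in pattern, and the nearest neighbour on each side; 1 gene that this rule names is not reported here. Genes named outside this are Egfr and Timp3, which Efemp1 concerns, and Fgfr2, which overlaps Htra1. Others are Rhox2h, Tex13b, Lrp5, Htra3, Adgre1, Cd68, Lum and Parva, and the defining markers Epcam and Cldn3, chosen after their values were seen. Dcn, Thy1, Hmcn2, Tsku, Fancl, Nsmce4a, Tacc2, Ikzf5 and Dnajc2 were also named after their values were seen, because an alternative removed their call. Alternatives changed the pseudocount, filter, scaling, shrinkage, libraries fitted and replicate block, and left out each library in turn. The 4 members' levels by tumour type were not tested.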

Additional observations from a re-analysis of the deposited data

How the results depend on the processing

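None of the 4 genes was called for OK-432 under any alternative, within a tumour type or on average, and the difference of the effect between tumour types was not called either. Estimates near 0 changed sign. Lrrc17 in CT26NYESO1 was 0.0122 after median-of-ratios scaling, and after quantile normalization Dkk3 in CT26 was 0.00129 and Htra1 in CT26 was -0.00635. Leaving out 1 library at a time gave ranges, on the log2 scale, of -0.0553 to 0.296 for Efemp1 in CT26NYESO1, -0.0646 to 0.0580 in LL2 and -0.0431 to 0.0739 on average. For Htra1 they were -0.0187 to 0.296 in CT26NYESO1, -0.0231 to 0.0352 in LL2, -0.140 to 0.147 in CT26 and -0.00206 to 0.111 on average. For Lrrc17 they were -0.218 to 0.1504 in CT26NYESO1, -0.609 to -0.050 in LL2 and -0.153 to 0.0329 on average. For Dkk3 they were -0.0465 to 0.246 in LL2, -0.0822 to 0.0652 in CT26 and -0.0722 to 0.0327 on average.

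The count of genes called for OK-432 depended on the setting. In CT26NYESO1 it was 112 as reported, 42 with no filter on low values, 56 without trend and robust shrinkage, 0 with only the libraries of that tumour type in the fit, and 4 to 673 with 1 library left out. In LL2 it was 3 as reported, 1 with a pseudocount of 0.1, 1 with a mean TPM of at least 5, 18 with no filter, 9 with only its own libraries, and 1 to 15 with 1 library left out. In CT26 it was 0 as reported, 22 with no filter, 4 with only its own libraries, and 0 to 8 with 1 library left out. The cause was not tested.

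With the replicate number as a block, 1 gene was called in LL2 and no other call count moved by over 1.5 times. Same-numbered OK432 and Ctrl libraries had deviations from their group means that correlated at -0.122 to 0.219, so the numbers were not taken as pairs. The log2 ratio of mean TPM of Htra1 with OK-432 was -6.27 for CT26NYESO1 over CT26 and -2.04 for LL2 over CT26, and after median-of-ratios scaling -6.02 and -1.93. The other ratios of the members moved by less than their spread. Depth is unknown, so how many reads support the low values in CT26NYESO1 cannot be stated.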
